A study of Homo sapiens with 38 samples.

Results

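The genes described here were the 200 most expressed ZNF genes in naive human embryonic stem cells and in the cultures that leave the naive state. They were the rows of the count table with a symbol made of ZNF and a number, and were chosen by their mean CPM (a gene's count scaled to the library's total count) over all 38 libraries. The table held 477 such rows among 57133 genes, and the 200 members carried 86.66% of all ZNF counts. This choice used the mean level over all libraries and no contrast, so levels are given as a description, whereas the comparisons between conditions were tested. ZNF839 at 16.50 CPM and ZNF7 at 16.44 CPM were the last genes inside the limit, and ZNF140 at 16.42 CPM and ZNF208 at 16.29 CPM the first outside it.

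ZNF genes encode proteins with zinc fingers, mostly of the C2H2 kind, in which tandem fingers read DNA bases. Most members of the human family also carry a KRAB box near the start of the protein, which recruits TRIM28 and through it the histone methyltransferase SETDB1 and HP1 proteins, so that the bound DNA is silenced. KRAB zinc finger genes are known as repressors of retroelements in early embryos and pluripotent cells, where DNA methylation is low in the naive state and rises later. Many of them stand in clusters on chromosome 19 that grew by tandem duplication.

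All libraries came from Shef6, an established human embryonic stem cell line that had been adapted to serum coating, so the values describe 1 cell line. For the naive state the cells grew in PXGL, which combines LIF with compounds that inhibit MEK, PKC and tankyrase (the last being XAV939), on a coating of fetal bovine serum or on Geltrex, a basement membrane extract. The same cells were plated on Geltrex in N2B27, a basal medium, in E8 or mTeSR, both media for primed cells, or in N2B27 with XAV939 (XAV) or with FGF2, Activin A and XAV939 (FAX), which are media for capacitation, the step from naive towards primed pluripotency. The first experiment (Ex1) had naive cells on each coating, cultures in N2B27 and in E8 sampled on days 2, 3, 4, 6 and 8, and cultures in mTeSR sampled on days 4, 6 and 8. The second (Ex2) had naive cells on Geltrex, and day 4 cultures in XAV, FAX and N2B27. Each of these 19 groups had 2 libraries, so 6 naive and 4 N2B27 day 4 libraries were available when the experiments were pooled, and whether paired libraries came from separate cultures was not settled, so p-values measure the spread between libraries, which may be technical.

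Libraries held 3038046 to 5612354 counts (median 4427277), and a member's median count within a library ranged from 89 to 209.5. No member was at 0 in any library, and all 200 were among the 16674 genes tested. Naive and primed markers followed the labels: SUSD2, a naive surface marker, fell from 94.9 ± 17.4 CPM (SD, n = 6) in naive cells to 38.7 CPM in N2B27, 11.9 CPM in E8 and 17.1 CPM in mTeSR at day 8, and ZIC2, a primed marker, rose from 0.82 to 154, 72.9 and 114 CPM. The naive libraries of Ex2 stood apart from those of Ex1. Their titles and time labels give PXGL at day 0, whereas their library names carry a day 4 tag, and the condition label of the naive samples reads PXGLY, so which tag is right was not settled. The members' share of counts was 0.905% and 0.958% in these libraries, against up to 1.179% in the naive libraries of Ex1, and on Geltrex 6 members were called lower in the Ex2 than in the Ex1 naive libraries and 0 higher (ZNF48, ZNF480, ZNF592, ZNF625, ZNF660 and ZNF786), where 4.67% of all genes tested were called. Without the fold limit, 61 members were lower and 6 higher, against 7.86% and 7.35% of all genes. The day 4 N2B27 libraries differed less between the experiments, with 0 members called by edgeR where 1.01% of all genes were, and 7 members lower and 6 higher on the adjusted p alone (all genes, 2.09% and 1.78%). Counts at day 8 and in XAV and FAX are therefore also given against the naive libraries of the same experiment. For the other days and media such counts stayed within 1.5 times those against all naive libraries.

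Members covered a wide range of levels around a median of 31.66 CPM. The 10 highest held 22.73% of the members' counts, 25 members exceeded a mean of 100 CPM and 30 stayed under 20 CPM. ZNF770 was the highest at 380.5 CPM. It was followed by ZNF207 at 310 CPM, a protein of the mitotic spindle also known as BuGZ, and by ZNF90 at 280.4 CPM. ZNF106, an RNA-binding protein, had 268.9 CPM and ZNF281, a regulator of pluripotency genes, 244.2 CPM. ZNF146, which consists of little other than fingers, had 210.3 CPM, and ZNF326, which links transcription to splicing, 187.1 CPM. ZNF428 at 186.5 CPM, ZNF638, which takes part in the silencing of foreign DNA, at 183.4 CPM, and ZNF217, an oncogene and corepressor partner, at 180.5 CPM closed the group. These are levels from 3′ end reads, in which each transcript gives about one read position whatever its length.

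A match to the KRAB box was found in 133 members and not in the other 67. The reference for this match was the majority sequence of 30 residues around the 7 residues most often shared by ZNF proteins, and a member counted as KRAB when it had at least 10 identities, a limit set after seeing that no member had 9. Of the KRAB members 93 were on chromosome 19 and 40 elsewhere, and of the others 13 and 54. The median number of C2H2 patterns was 10 and the highest 36. In all, 106 members were on chromosome 19 and 109 had another member within 100 kb. Members without a KRAB match had the higher median level, 41.92 against 30.33 CPM, and 27 of the 50 highest members were KRAB genes. Near-identical copies bear on few members: over 20% of the 50-base words in the last 400 bases of the transcript were shared with another gene for 9 members, among them ZNF322 (55.0%), ZNF808 (44.4%) and ZNF98 (36.8%), whose counts are therefore uncertain, and 166 members shared none.

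Among members on chromosome 19, the largest run was a set of 27 genes between positions 19668796 and 24129968 (GRCh38, GENCODE release 44), in which neighbours lay within 500 kb of each other. RefSeq promoters (GRCh38.p14, 250 bases before to 50 after the annotated start) were matched for 21 of the 27, and are shown because genes of this run moved both ways. All searches for words in promoters used only the 250 bases before the start. The most common word of 10 bases in these 21 promoters, TCCAATCAGG, was present in 19 of them on the strand of the gene, which is a description since the word was picked there. It contains CCAAT, the box bound by NF-Y, and its reverse complement is CCTGATTGGA. Searched on both strands, the word was in 0 of 13, 0 of 22 and 0 of 14 member promoters in the other 3 chromosome 19 runs of at least 10 members, in 9 of 81 member promoters on other chromosomes (11.11%) in 3 of all 73 member promoters on chromosome 19 outside the run (4.11%) and in 105 of 27305 promoters of all genes (0.3845%). CCAAT alone was in 21 of the 21 and in 33.04% of all promoters.

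The 250 bases upstream of the start are given for 5 genes of the run, with the 10-base word in capitals: ZNF257 (chr19:22052234-22052483, plus strand), ZNF100 (chr19:21767580-21767829, minus strand) and ZNF675 (chr19:23687213-23687462, minus strand), which fell, and ZNF90 (chr19:20077750-20077999, plus strand) and ZNF682 (chr19:20039506-20039755, minus strand), which had higher levels outside the naive state. ZNF682 was chosen after its values were seen.
ZNF257: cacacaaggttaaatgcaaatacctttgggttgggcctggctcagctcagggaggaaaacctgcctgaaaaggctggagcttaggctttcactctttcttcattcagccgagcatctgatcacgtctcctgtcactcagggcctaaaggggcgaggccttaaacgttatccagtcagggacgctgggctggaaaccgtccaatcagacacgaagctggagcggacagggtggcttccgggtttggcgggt
ZNF100: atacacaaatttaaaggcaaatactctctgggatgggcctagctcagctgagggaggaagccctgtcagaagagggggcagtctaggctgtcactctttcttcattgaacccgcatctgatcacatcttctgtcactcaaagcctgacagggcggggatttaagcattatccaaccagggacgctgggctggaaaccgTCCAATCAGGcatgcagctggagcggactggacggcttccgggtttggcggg
ZNF675: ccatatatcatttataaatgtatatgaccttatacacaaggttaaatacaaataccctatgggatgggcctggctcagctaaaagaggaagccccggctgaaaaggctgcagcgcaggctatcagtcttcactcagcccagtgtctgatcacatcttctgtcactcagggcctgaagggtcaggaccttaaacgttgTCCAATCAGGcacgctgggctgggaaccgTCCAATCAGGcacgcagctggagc
ZNF90: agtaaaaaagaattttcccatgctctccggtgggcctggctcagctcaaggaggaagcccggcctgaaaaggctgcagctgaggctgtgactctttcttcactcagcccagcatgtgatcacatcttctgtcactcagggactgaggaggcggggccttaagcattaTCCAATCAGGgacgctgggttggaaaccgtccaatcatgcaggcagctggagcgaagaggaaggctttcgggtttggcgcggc
ZNF682: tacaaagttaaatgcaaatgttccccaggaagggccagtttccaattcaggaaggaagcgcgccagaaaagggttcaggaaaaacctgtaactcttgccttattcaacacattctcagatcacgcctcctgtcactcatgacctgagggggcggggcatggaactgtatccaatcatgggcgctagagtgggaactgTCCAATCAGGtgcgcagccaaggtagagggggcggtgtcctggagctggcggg
The longest stretch of identical bases was 32 between ZNF257 and ZNF100, 24 between ZNF100 and ZNF675 and 16 between ZNF257 and ZNF675. With ZNF90, which did not fall, it was 25 for ZNF675, 22 for ZNF100 and 18 for ZNF257. Between ZNF682 and the others it was 10 to 13. ZNF675 held the word at 2 places, and ZNF257 and ZNF493 were the promoters of the run without it. Genes that fell and genes that did not both held the word, so its presence did not divide them.

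Each medium and day was compared with the 6 naive libraries to see which members fall or rise on leaving the naive state. Calls required a log2 fold change above 1 in size and an adjusted p below 0.05 (edgeR quasi-likelihood test, Benjamini-Hochberg adjustment over all genes tested). At day 8 in N2B27, 8 members were called higher and 14 lower, 11% of the members, where 23.9% of all genes tested were called. In E8, 9 were higher and 21 lower (all genes, 27.5%), and in mTeSR 10 were higher and 16 lower (all genes, 25.1%). By direction, 16.9%, 18.2% and 16.9% of all genes were called higher in these media and 7.03%, 9.24% and 8.20% lower. Against the naive libraries of Ex1 alone, the counts were 8 higher and 19 lower in N2B27 (all genes, 25.4% called and 7.22% lower), 9 and 23 in E8 (28.4% and 9.41%) and 11 and 18 in mTeSR (26.6% and 8.58%).

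**Figure D1:**
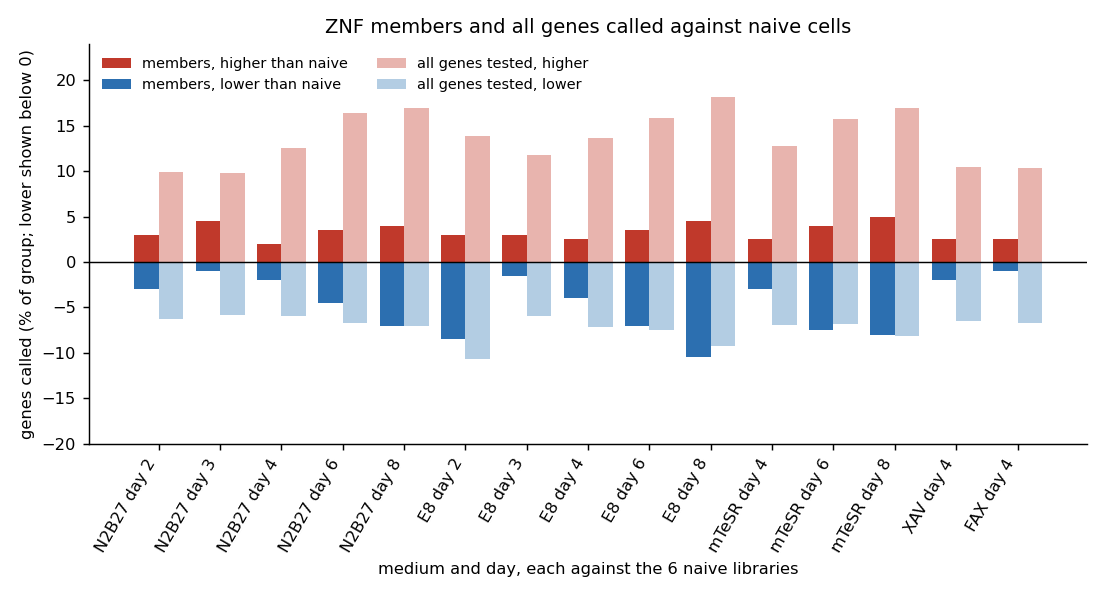
Bars show the percentage of the 200 members (dark) and of all 16674 genes tested (pale) called higher (above 0) or lower (below 0) than the 6 naive libraries, for each medium and day. The members' bars above 0 stay below those of all genes in every comparison, and at day 8 more members are called lower than higher in N2B27, E8 and mTeSR.

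Without the fold limit more members passed, with the calls above among them, and more of all genes passed too. On the adjusted p alone, 35 members were higher and 64 lower in N2B27 at day 8 (24.7% and 20.4% of all genes), 39 and 67 in E8 (26.8% and 23.1%) and 36 and 60 in mTeSR (24.7% and 20.7%). The median log2 fold change of the members was -0.21, -0.14 and -0.15, against -0.03, 0.00 and -0.02 for all genes tested.

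Each earlier day had fewer calls than day 8 of the same medium. In N2B27, 6 members were higher and 6 lower at day 2 (all genes, 9.86% and 6.30%), 9 and 2 at day 3 (9.78% and 5.83%), 4 and 4 at day 4 (12.5% and 5.96%) and 7 and 9 at day 6 (16.4% and 6.69%). In E8 the counts were 6 and 17 at day 2 (13.9% and 10.7%), 6 and 3 at day 3 (11.8% and 5.99%), 5 and 8 at day 4 (13.6% and 7.21%) and 7 and 14 at day 6 (15.8% and 7.47%). With plain library totals in place of TMM scaling, E8 at day 2 had 5 higher and 31 lower, and the median of all genes moved to -0.15. In mTeSR, 5 were higher and 6 lower at day 4 (12.8% and 6.93%) and 8 and 15 at day 6 (15.7% and 6.87%). XAV gave 5 and 4 at day 4 (10.5% and 6.54%) and FAX 5 and 2 (10.3% and 6.77%), which became 17 and 4 (12.6% and 9.41%), and 23 and 5 (13.3% and 10.3%), against the naive libraries of Ex2 alone. Over the 15 comparisons, 58 members were called at least once, 19 higher and 39 lower with none both ways, and 142 were never called. Of all genes tested, 55.3% were called at least once, 32.8% higher, 25.7% lower and 3.24% both ways.

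At day 8, ZNF423, ZNF711 and ZNF850 had the highest log2 fold changes of the members in E8 and mTeSR, and in N2B27 ZNF367 (1.70) stood between ZNF711 and ZNF850. ZNF423, a cofactor of SMAD and EBF proteins on chromosome 16 (chr16:49487524-49857919), had 27 C2H2 patterns and no KRAB match. Its level in the 6 naive libraries was 4.86 CPM at the lowest, 7.43 at the median and 14.6 at the highest. At day 8 the libraries had 49.0 and 42.2 CPM in N2B27, 35.9 and 55.7 in E8 and 53.0 and 54.6 in mTeSR. Every day 8 library was above every naive library, and the highest naive values were those of Ex2. Such a lack of overlap was required of the leading members named here, so for ZNF423, ZNF711, ZNF850, ZNF729 and ZNF696 it only describes them. The log2 fold change was 2.42 in N2B27 (SE 0.20, adjusted p = 2.4e-12, edgeR), 2.48 in E8 and 2.71 in mTeSR. It had already reached 29.6 and 35.6 CPM at day 2 in N2B27 and 31.8 and 38.1 in E8.

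ZNF711, an X-linked gene for which variants are known in intellectual disability and whose protein binds promoters with the demethylase PHF8, rose more slowly. Naive libraries ranged from 3.84 to 9.87 CPM (median 6.44). At day 2 N2B27 had 9.26 and 9.69 CPM and E8 6.36 and 9.45, within the naive range. At day 8 it stood at 37.0 and 33.8 CPM in N2B27, 41.9 and 55.9 in E8 and 37.5 and 39.9 in mTeSR, with no overlap with the naive libraries. The log2 fold changes were 2.31, 2.85 and 2.50 (SE 0.19 to 0.20), with adjusted p (edgeR) of 1.1e-11 in N2B27.

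ZNF850, a KRAB gene on chromosome 19 (chr19:36714383-36772825) with 29 C2H2 patterns, was the one member on that chromosome called higher at day 8. Naive levels ran from 35.9 to 73.0 CPM (median 59.4). Day 8 levels were 206 and 176 CPM in N2B27, 150 and 196 in E8 and 203 and 197 in mTeSR. All of these exceeded the naive libraries, and day 2 values of 141 and 136 CPM in N2B27 did so too. Its log2 fold change was 1.65, 1.57 and 1.77 (SE 0.14).

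**Figure D2:**
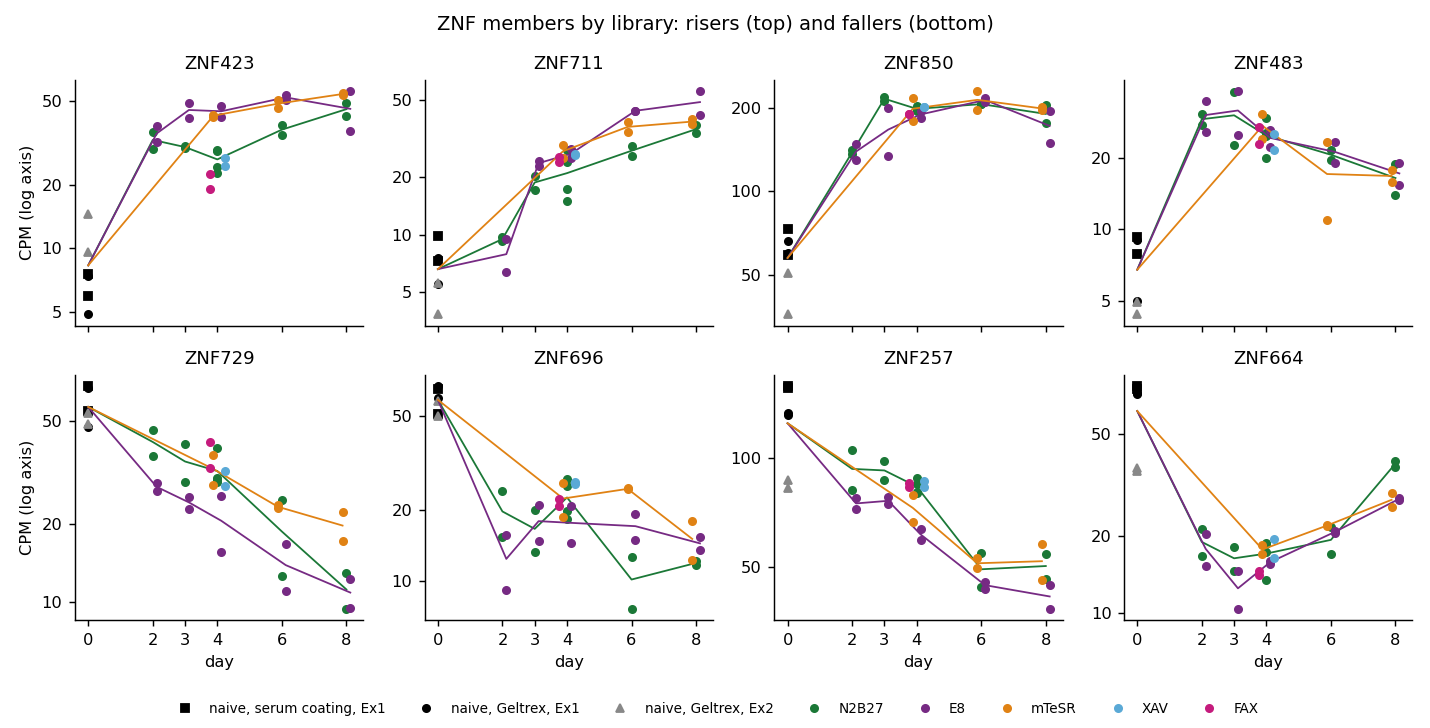
CPM of each library (points, log axis) against day for ZNF423, ZNF711, ZNF850 and ZNF483, which rose (top), and ZNF729, ZNF696, ZNF257 and ZNF664, which fell (bottom), with naive libraries at day 0 marked by coating and experiment and lines through the group means of N2B27, E8 and mTeSR. The top genes are above the naive libraries at day 4 in every medium, ZNF483 declines again by day 8, and ZNF664 is lowest at days 3 and 4.

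Other risers differed in timing. ZNF483, a gene with SCAN and KRAB domains, was highest early, at 27.6 and 30.6 CPM on day 2 in N2B27 against 4.39 to 9.34 in naive cells, and was at 18.9 and 14 by day 8 (log2 fold change 1.18, SE 0.27, and 0.94 without the first N2B27 library). The opposite course was seen for ZNF367, which was at 14.5 and 10.1 CPM on day 2 and 42.4 and 53.7 on day 8 in N2B27, against 10.8 to 17.1 in naive cells. At day 4 its libraries had 13.3 CPM each in XAV and 15.4 and 11.2 in FAX. Late rises were also shown by ZNF618, a partner of the hydroxymethylcytosine reader UHRF2, with log2 fold changes of 1.24, 1.08 and 1.08 at day 8 in N2B27, E8 and mTeSR, and by ZNF827, which recruits the NuRD complex, with 1.10, 1.04 and 1.37. Without the second E8 library the E8 values of ZNF618 and ZNF827 were 0.92 and 0.95 and no longer called. The E8 call of ZNF827 also ended without the first naive library of Ex2 (0.98), and the mTeSR call of ZNF618 ended without that library (0.995) and without the second mTeSR library (0.91). ZNF22 was called in E8 (1.24) and mTeSR (1.22), with 0.60 in N2B27.

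ZNF729 and ZNF696 had the lowest log2 fold changes of the members at day 8 in all 3 media. ZNF729, a KRAB gene in the largest chromosome 19 run (chr19:22286441-22317176) with 34 C2H2 patterns, had 47.7 to 68.7 CPM in naive cells (median 54.2). At day 8 it had 13.0 and 9.39 CPM in N2B27, 9.53 and 12.3 in E8 and 22.3 and 17.3 in mTeSR, all below the naive range. The log2 fold changes were -2.43, -2.40 and -1.54 (SE 0.23 to 0.25, adjusted p = 4.9e-10, 5.9e-10 and 1.4e-06, edgeR). ZNF696, on chromosome 8 and without a KRAB match, was at 50.03 to 66.9 CPM (median 58.5) in naive cells and at 12.1 and 11.7 CPM in N2B27, 13.5 and 15.3 in E8 and 12.2 and 17.8 in mTeSR at day 8. It had fallen to 23.9 and 15.3 CPM by day 2 in N2B27, and its log2 fold changes at day 8 were -2.37, -2.03 and -1.98 (SE 0.23 to 0.24).

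Further falls came mainly from chromosome 19. ZNF576 had 24.4 to 37.5 CPM in naive cells and 8.44 and 8.82 at day 8 in N2B27 (log2 fold change -1.86, SE 0.20). In mTeSR it had 17.9 and 9.62 CPM, and its log2 fold change of -1.13 became -0.75 without the second mTeSR library. ZNF568, the counterpart of a mouse gene that represses a placental Igf2 transcript, went from 25.02 to 32.8 CPM in naive cells to 9.35 and 9.97 in N2B27, 8.60 and 12.7 in E8 and 6.80 and 14.1 in mTeSR. Its log2 fold changes were -1.70, -1.50 and -1.53. ZNF100 (-1.10, -1.29 and -1.20) and ZNF675, known as an inhibitor of TRAF6 signalling (-1.12, -1.42 and -1.27), had naive and day 8 libraries that did not overlap in any of the 3 media.

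Other members passed the fold limit in some media and not in others. ZNF44 had 20.5 and 22.8 CPM in N2B27, 10.8 and 12.7 in E8 and 14.95 and 14.99 in mTeSR at day 8, against 28.3 to 41.9 in naive cells. It was called in E8 (-1.69) and mTeSR (-1.35), and its value in N2B27 was -0.87. ZNF200 was called in E8 (-1.15) and mTeSR (-1.41), with -0.63 in N2B27, and ZNF263 in N2B27 (-1.23) and E8 (-1.11), with -0.87 in mTeSR. ZNF428, of the 10 highest members, was called in E8 (-1.33) and mTeSR (-1.06), with -0.94 in N2B27. With other naive libraries some of these calls ended: against Ex1 alone ZNF428 had -0.95 in mTeSR and ZNF263 -0.95 in E8, and against Geltrex alone ZNF200 had -0.98 in E8. Whether these values differ between media was tested only by the comparisons between media below.

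Some falls depended on which naive libraries were used. ZNF257, a KRAB gene of the largest run, had 131 to 158 CPM in the naive libraries of Ex1 and 82.3 and 86.8 in those of Ex2. At day 4 in Ex2 its levels were 80.4 and 84.5 CPM in N2B27, 82.9 and 86.0 in XAV and 85.1 and 82.8 in FAX, which lie about where the Ex2 naive libraries do. By day 8 it had 46.1 and 54.3 CPM in N2B27, 38.1 and 44.6 in E8 and 57.6 and 45.8 in mTeSR, below both sets of naive libraries. Its log2 fold changes at day 8 were -1.39, -1.60 and -1.28, and -1.56, -1.79 and -1.47 against Ex1 alone. ZNF432 had 57.4 to 77.7 CPM in Ex1 and 31.3 and 32.4 in Ex2 naive libraries, and its call in XAV (-1.08) ended against the Ex2 libraries alone (-0.36, adjusted p = 0.061, edgeR), against Geltrex alone (-0.86) and without the first serum-coated library (-0.94).

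ZNF664 fell early and then partly returned. Naive libraries had 71.8 to 77.4 CPM in Ex1 and 35.9 and 37.1 in Ex2. In E8 it was at 20.4 and 15.4 CPM at day 2, 10.4 and 14.7 at day 3 and 28.2 and 27.8 at day 8. In N2B27 it reached 37.4 and 39.5 CPM at day 8, at the level of the Ex2 naive libraries and below those of Ex1, and its log2 fold change against all naive libraries was -0.76 and not called. At day 4 its log2 fold change was -1.88 in N2B27, -1.97 in E8, -1.82 in mTeSR, -1.79 in XAV and -2.09 in FAX, and the last 2 were -1.05 and -1.34 against the Ex2 naive libraries alone.

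Some other early falls were no longer called later. Of the 17 members called lower in E8 at day 2, 12 were called lower at no later day in E8, and of 6 in N2B27 this held for 2. How often this held over all genes was not counted, so it cannot be read as particular to the members. Of all genes tested, 10.7% were called lower in E8 at day 2 and 5.99% at day 3. The E8 day 2 libraries were among the smallest, with 3143033 and 3385716 counts. ZNF670, chosen after its values were seen, ranged from 27.3 to 44.6 CPM in the naive libraries. At day 2 the E8 libraries had 9.23 and 7.38 CPM (log2 fold change -2.02), and at day 3 they had 25.4 and 38.3 CPM. ZNF597 likewise had -1.63 in E8 at day 2 and -0.83 at day 8.

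Among the highest members few were called. ZNF770 had 163 to 304 CPM in naive cells and 383 and 356 in N2B27, 416 and 493 in E8 and 470 and 478 in mTeSR at day 8. All 6 day 8 libraries were above the naive ones, with log2 fold changes of 0.47, 0.84 and 0.89. ZNF281 (0.59, 0.91 and 0.83) and ZNF90 (0.57, 0.50 and 0.68) were likewise higher on the adjusted p in all 3 media and below the fold limit, although against the naive libraries on Geltrex alone ZNF281 passed it in E8 (1.10) and mTeSR (1.02). ZNF106 was lower, from 344 to 386 CPM in naive cells to 208 to 229 at day 8, with log2 fold changes of -0.79, -0.78 and -0.79, and so was ZNF326 (-0.66, -0.64 and -0.46). ZNF207 had -0.16, 0.27 and -0.08 and ZNF638 0.07, 0.03 and 0.20, none past the adjusted p. For ZNF638 the sign turned when the Ex2 naive libraries were left out (-0.15, -0.19 and -0.021), and for ZNF207 in mTeSR when the serum-coated ones were (0.078).

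By class, most members called lower at day 8 were on chromosome 19. Of the 106 members on chromosome 19, 1 was called higher in each medium, and 12, 16 and 11 lower in N2B27, E8 and mTeSR, where 16.9%, 18.2% and 16.9% of all genes were called higher and 7.03%, 9.24% and 8.20% lower. Of the 94 on other chromosomes, 7, 8 and 9 were higher and 2, 5 and 5 lower. KRAB members had 2 calls higher in each medium and 11, 16 and 11 lower of 133, and the 67 without a match 6, 7 and 8 higher and 3, 5 and 5 lower. On chromosome 19 the 13 members without a KRAB match had 0 higher and 2, 2 and 3 lower, while the 40 KRAB members elsewhere had 1 higher in each medium and 1, 2 and 3 lower. The median log2 fold changes in N2B27, E8 and mTeSR were -0.23, -0.18 and -0.25 on chromosome 19 and -0.19, -0.04 and 0.05 elsewhere, closest to each other in N2B27 and of opposite sign in mTeSR. The 241 other ZNF genes tested, which have lower levels, had 13 higher and 23 lower in N2B27, 22 and 33 in E8 and 21 and 24 in mTeSR.

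**Figure D3:**
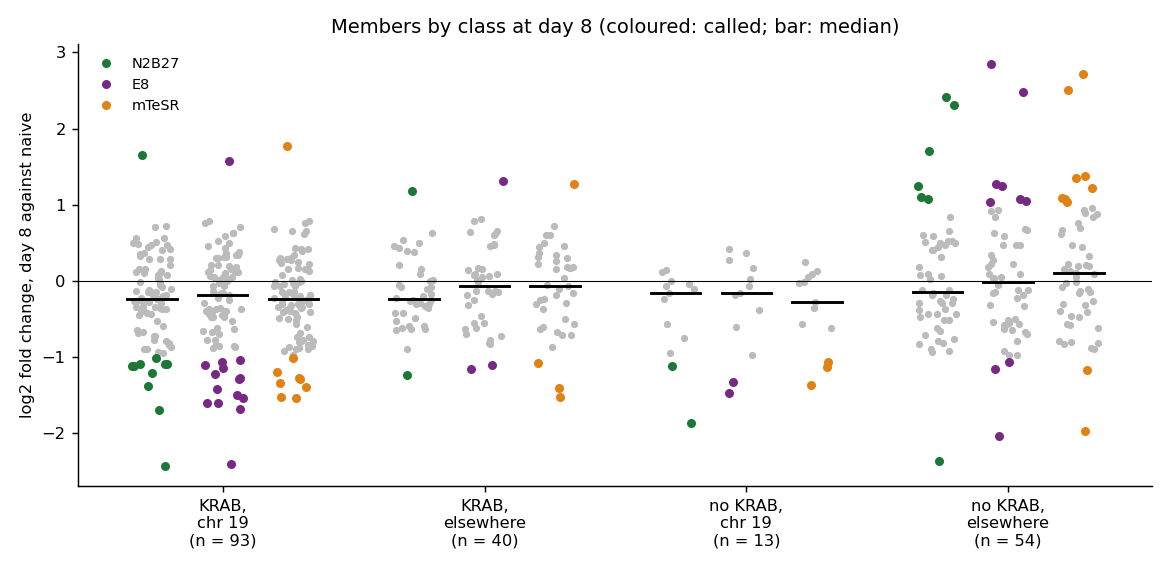
Log2 fold change at day 8 against naive cells for each member (points; coloured when called) by KRAB match and chromosome, in N2B27, E8 and mTeSR, with the median as a bar. Of the called falls, 10 of 14 in N2B27, 14 of 21 in E8 and 8 of 16 in mTeSR lie in the column of the 93 KRAB members on chromosome 19. These falls are 10.75%, 15.05% and 8.602% of that class, where 7.03%, 9.24% and 8.20% of all genes were called lower. Most called rises lie in the column of the 54 members elsewhere without a match. They are 11.11%, 12.96% and 14.81% of that class, where 16.9%, 18.2% and 16.9% of all genes were called higher.

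Along chromosome 19 the falls were spread over several runs. In the largest run of 27 members, 0 were called higher and 4, 5 and 4 lower at day 8 in N2B27, E8 and mTeSR, namely ZNF729, ZNF257, ZNF100 and ZNF675 and, in E8, ZNF98 (-1.10, and -0.97 without the first Geltrex naive library of Ex1). The share of all genes called lower was 7.03%, 9.24% and 8.20%, to which the counts of this and the other runs can be compared. On the adjusted p alone, 5, 5 and 2 members of that run were higher and 7, 9 and 8 lower, where 24.7%, 26.8% and 24.7% of all genes were higher and 20.4%, 23.1% and 20.7% lower. Neighbours could therefore go apart: ZNF682 had 60.9 to 86.1 CPM in naive cells and 127 and 146 at day 8 in N2B27 (log2 fold change 0.71), and was called higher in XAV (1.21) and FAX (1.16) at day 4. In the run of 13 members between 36214602 and 37817300, ZNF850 rose and ZNF568 fell. The run of 26 between 51804816 and 53580269 had 1, 3 and 2 called lower, namely ZNF432 in all 3 media, ZNF83 in E8 and mTeSR and ZNF808 in E8. The mTeSR call of ZNF83 (-1.01) ended in 10 of 17 alternatives, with RLE scaling (-0.994), plain totals (-0.992) and DESeq2 (-0.994) among them, and its E8 call (-1.15) without the first E8 library (-0.906). The N2B27 call of ZNF432 (-1.09) ended against Geltrex alone (-0.870) and without the first serum-coated (-0.952) or the second N2B27 library (-0.934). The call of ZNF808 (-1.06) ended against Geltrex alone (-0.850) and without either serum-coated library (-0.963 and -0.982) or the first E8 library (-0.986). The run of 15 between 57191500 and 58302791 had 2, 1 and 0, of which ZNF552 in N2B27 (-1.10) ended against Geltrex alone (-0.985). The 5 members between 12064731 and 12633840, among them ZNF44, ZNF136 and ZNF625, had 1, 3 and 1. The one in N2B27 was ZNF136 (-1.01), whose call ended in 10 of 17 alternatives, with RLE scaling (-0.98), plain totals (-0.93), DESeq2 (-0.99) and without the second N2B27 library (-0.89) among them. Its E8 call (-1.05) ended without the second serum-coated (-0.994) or the second Geltrex naive library of Ex1 (-0.998).

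**Figure D4:**
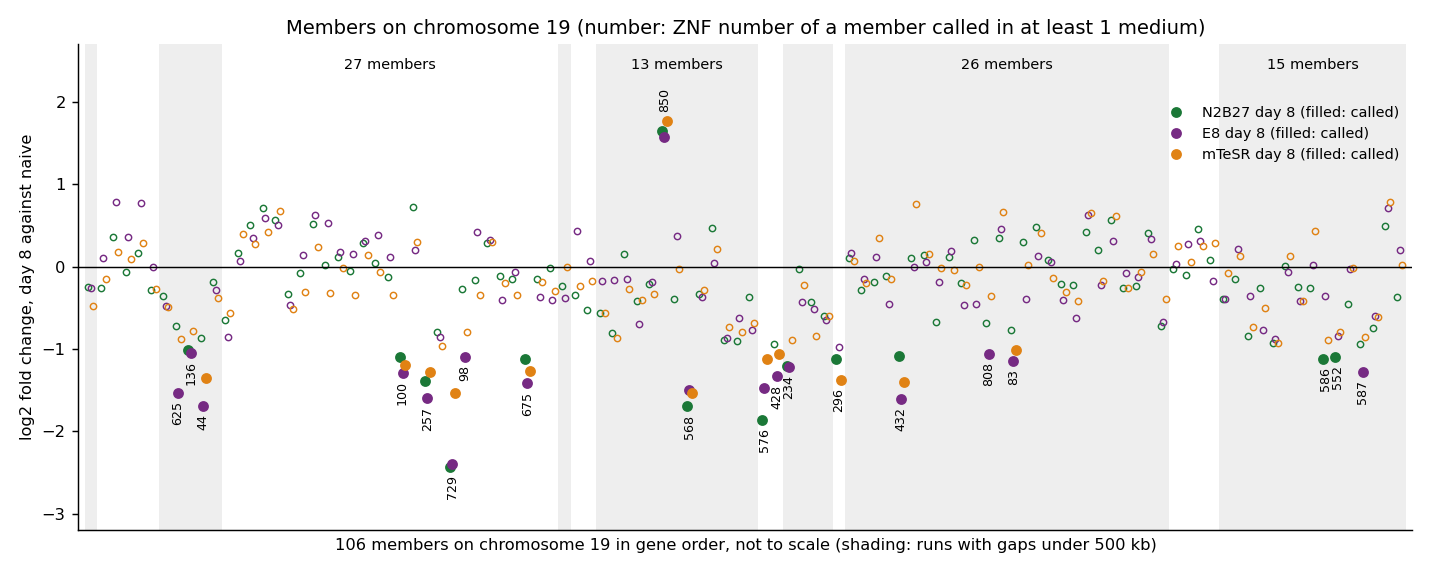
Log2 fold change at day 8 against naive cells for the 106 members on chromosome 19 in gene order (not to scale), in N2B27, E8 and mTeSR; filled points were called and shading marks runs with gaps under 500 kb. Values range from -2.43 to 1.77, with called genes beside genes near 0 in the same run.

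Capacitation media at day 4 gave the same direction for the leading risers. In XAV the log2 fold change against naive cells was 1.94 for ZNF711, 1.79 for ZNF850, 1.76 for ZNF483 and 1.65 for ZNF423. In FAX it was 1.87, 1.73, 1.88 and 1.37. Against the Ex2 naive libraries alone, the values of ZNF711, ZNF850 and ZNF483 were higher, at 2.45, 2.18 and 2.30 in XAV and 2.39, 2.12 and 2.42 in FAX. Those of ZNF423 were lower, at 1.04 in XAV and 0.76 in FAX, where the call ended. These comparisons share the 6 naive libraries with each other and with those above. ZNF696 had -1.18 in XAV and -1.43 in FAX, with 25.6 and 26.3 CPM and 22.2 and 20.8 CPM. ZNF100 was called in XAV (-1.02), with -0.83 in FAX, and its call ended against Geltrex alone (-0.98), without the second naive library of Ex2 (-0.95) and without the second serum-coated one (-0.99).

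Added agents and coating moved no member past the limits. XAV and FAX were each compared with N2B27 at day 4 within Ex2. edgeR called 0 members in XAV, where 0.570% of all genes were called, and 0 in FAX, where 0.336% were, and none passed on the adjusted p alone, where 0.138% of all genes were higher and 1.20% lower in XAV, and 0.138% and 0.708% in FAX. At an unadjusted p under 0.05 there were 9 and 19 members, and DESeq2 called 0 in each. The members' log2 fold changes lay between -0.47 and 0.52 for XAV and between -0.72 and 0.63 for FAX. Between naive cells on Geltrex and on serum coating, edgeR and DESeq2 also called 0 members (all genes by edgeR, 0.0480%), with 26 at an unadjusted p under 0.05. For these comparisons the share of all genes at the unadjusted limit was not counted. With no true difference a share of 0.05 would pass that limit.

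Between media few members passed the fold limit, while more passed on the adjusted p alone. E8 and N2B27 had 0 members called at day 4 by edgeR (all genes, 2.49%) and 0 by DESeq2, with 47 at an unadjusted p under 0.05, and mTeSR and N2B27 also had 0 by both at that day (1.58%), with 41. These percentages are for calls, and no share of all genes was counted at the unadjusted limit. At day 6, 4 members were lower in E8 than in N2B27 (5.28%), namely ZNF625 (-1.31), ZNF83 (-1.08), ZNF608 (-1.04) and ZNF98 (-1.01). In mTeSR at day 6, ZNF696 was higher (1.30) and ZNF625 lower (-1.06) than in N2B27 (2.62%). All 6 calls are named because there were few, after their values were seen. Leaving out 1 library ended the calls of ZNF83 (-0.96 without the second N2B27 library), ZNF608 (-0.98 without the first E8 library) and ZNF98 (-0.98 without the second E8 library), and in mTeSR those of ZNF696 (0.97 without the second N2B27 library) and ZNF625 (-0.89 without the second mTeSR library, -0.997 without the first N2B27 library). The ZNF98 call also ended with RLE scaling (-0.987), without a filter (-0.986) and in DESeq2 (-0.988).

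On the adjusted p alone, 5 members were higher and 11 lower in E8 than in N2B27 at day 4 (all genes, 3.74% and 4.19%), 10 and 25 at day 6 (7.67% and 8.20%) and 24 and 19 at day 8 (9.57% and 9.69%). In mTeSR against N2B27 the counts were 7 and 7 at day 4 (2.43% and 2.29%), 11 and 18 at day 6 (4.64% and 4.41%) and 14 and 6 at day 8 (5.68% and 5.22%). Between mTeSR and E8 at day 8 they were 11 and 13 (7.26% and 6.82%).

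At day 8, ZNF398, an effector of TGF-β signalling in human pluripotent cells, was the member called between E8 and N2B27 (all genes, 7.29%). It had 66.3 and 56.6 CPM in E8 and 31.2 and 32.0 in N2B27. The log2 fold change was 1.03 (SE 0.14, adjusted p = 1.4e-06, edgeR), and it fell below the fold limit with plain library totals (0.96) and without the first E8 library (0.89). In naive cells it ranged from 19.8 to 49.4 CPM. ZNF597, an imprinted gene, was the member called between mTeSR and N2B27 (3.80%), at 7.61 and 6.79 against 20.1 and 18.4 CPM (log2 fold change -1.35, adjusted p = 0.0016, edgeR). ZNF395, a hypoxia-induced factor, was the member called between mTeSR and E8 (5.31%), with 198 and 240 against 90.8 and 85.6 CPM and 124 and 128 CPM in N2B27 (mTeSR against E8, log2 fold change 1.30, adjusted p = 1.8e-07, edgeR). For ZNF395, E8 lay within the naive range of 65.8 to 95.4 CPM.

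Day 4 in N2B27 was measured in both experiments, each with its own naive cells on Geltrex and with no library in common. In Ex1, 6 members were called higher and 5 lower (all genes, 16.6%). In Ex2, 21 were higher and 6 lower (21.8%). Both experiments called 7 members in the same direction, which were 63.64% of the calls of Ex1 and 25.93% of those of Ex2, and 0 in opposite directions. Over all 200 members, called or not, 122 had the same sign in both. How often all genes tested agreed in calls or in sign was not counted. These numbers therefore do not show whether members agree more or less than other genes. The 7 were ZNF850 (1.59 in Ex1 and 2.17 in Ex2), ZNF711 (1.22 and 2.43), ZNF483 (1.92 and 2.24), ZNF462 (1.06 and 1.06), ZNF44 (-1.25 and -1.06), ZNF664 (-2.01 and -1.25) and ZNF696 (-1.79 and -1.07). In Ex2 the calls of ZNF44 and ZNF696 ended without the second naive library (-0.79 and -0.94), and that of ZNF44 also without the second N2B27 library (-0.92). The effect differed between experiments for 49 members by the interaction test, where 11.7% of all genes tested passed.

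Other genes of the silencing pathway changed mostly by less than the fold limit. Of 21 genes of the TRIM28 machinery, 0 were called higher and 2 lower at day 8 in N2B27 and in E8, and 1 and 2 in mTeSR. Of all genes, 16.9%, 18.2% and 16.9% were called higher and 7.03%, 9.24% and 8.20% lower. On the adjusted p alone, 4 were higher and 10 lower in N2B27, 4 and 13 in E8 and 5 and 10 in mTeSR. By that measure 24.7%, 26.8% and 24.7% of all genes were higher and 20.4%, 23.1% and 20.7% lower. The falls past the limit were UHRF1, which couples DNA methylation to replication (-1.26, -1.39 and -1.13), and MORC3 (-1.01, -1.06 and -1.15), and the rise was CBX5, which encodes an HP1 protein (1.19 in mTeSR). TRIM28 itself had -0.34, -0.09 and -0.21, none past the adjusted p. The list's median log2 fold change was -0.33, -0.35 and -0.21.

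Of 11 ZNF genes known to bind retroelements, 8 were members. Of these 8, 0 were called in N2B27 and mTeSR at day 8 and 1 in E8, ZNF587, which had 23.0 and 26.4 CPM against 36.8 to 91.1 in naive cells (-1.28), and 7.03%, 9.24% and 8.20% of all genes were called lower in N2B27, E8 and mTeSR. The median was -0.27, -0.27 and -0.30. ZNF91, a repressor of SVA elements, had -0.15, -0.07 and -0.34, and ZNF93, a repressor of LINE elements, 0.50, 0.35 and 0.27. Of 14 ZNF genes linked to pluripotency or development, 12 were members, and 2, 3 and 2 of them were called higher and 0 lower (all genes higher, 16.9%, 18.2% and 16.9%), namely ZNF423 and ZNF711 and, in E8, ZNF462 (1.04), with medians of 0.19, 0.61 and 0.54. ZNF462 was at 0.91 in E8 against the naive libraries of Ex1 alone, at 0.96 without the first E8 library and at 0.98 and 0.99 without either naive library of Ex2.

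The members' share of all counts stayed within a narrow band, from 0.924% ± 0.024 (SD, n = 2) in E8 at day 2 to 1.178% ± 0.035 (n = 2) in N2B27 at day 3, with 1.074% ± 0.116 (n = 6) in naive cells. At day 8 it was 1.030% in N2B27, 1.009% in E8 and 1.054% in mTeSR. Single day 8 libraries had 0.988% to 1.062%, all below the 4 naive libraries of Ex1, the experiment they belong to (1.101% to 1.179%), and above those of Ex2 (0.905% and 0.958%). In Ex2 the N2B27, XAV and FAX libraries at day 4 had 1.089% to 1.148%, all above their own naive libraries. KRAB members held 0.584% ± 0.064 in naive cells and 0.553%, 0.523% and 0.538% at day 8, where single libraries (0.511% to 0.560%) also lay below those of the Ex1 naive cells (0.597% to 0.642%). The other members held 0.490% ± 0.052 in naive cells and 0.478%, 0.487% and 0.516% at day 8, and their libraries (0.475% to 0.527%) overlapped with the Ex1 naive ones (0.504% to 0.541%).

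**Figure D5:**
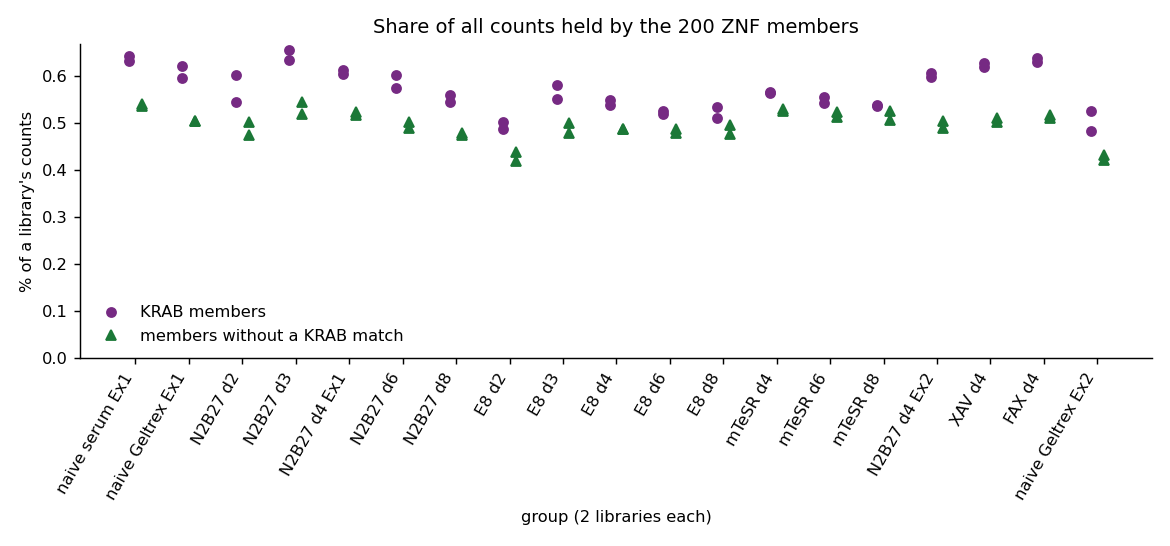
Percentage of a library's counts held by the 133 KRAB members (circles) and the 67 members without a match (triangles) in each of the 38 libraries by group. The lowest naive values are those of Ex2, where the lowest value for KRAB members was 0.484%.

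Markers of other cell types rose in the same cultures. Of 9 markers of trophectoderm, hypoblast and neural cells, 7 were tested, and at day 8 the number called higher was 7 for N2B27, 5 for E8 and 4 for mTeSR, with 0, 1 and 0 lower. Their summed level was 5.49 to 9.49 CPM in naive libraries, 173 to 196 CPM in N2B27, 29.5 to 29.9 CPM in E8 and 78.7 to 81.8 CPM in mTeSR at day 8, and 23.7 to 26.4 CPM in XAV and 39.9 to 42.2 CPM in FAX at day 4. SOX17, a hypoblast and endoderm factor, went from 0.11 CPM to 63.7, 5.51 and 35.8 CPM, and GATA3, a trophectoderm factor, from 2.53 to 38.4, 12.6 and 5.14 CPM, while KRT7 and SOX1 were at 0 in both mTeSR libraries. Their part in the members' changes was not tested, and in bulk libraries fewer cells of a type and less RNA per cell cannot be told apart.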

How the data were processed

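RNA of 38 Shef6 libraries had been sequenced by the authors with QuantSeq, a kit that reads transcripts from their 3′ end, as 50-base single reads. Per the submitters' processing notes and the study's methods the authors used FastQC 0.11.9, STAR 2.7.10a and Salmon 1.9.0 within the nf-core RNA-seq workflow on hg38, and deposited 1 table of whole-number counts per gene, not normalised. The annotation release is not given in the sources used here. Since each transcript is read near its end, members with near-identical ends can share reads.

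The counts were analysed with edgeR 4.0.16 in R 4.3.3 (TMM scaling, filterByExpr, quasi-likelihood F-test). All libraries entered 1 fit with 16 levels of medium and day, in which naive and N2B27 day 4 libraries were pooled over the experiments as in the study, or 1 fit with 19 groups for comparisons within an experiment. The 16674 genes tested held 99.65% of all counts. Calls needed a Benjamini-Hochberg adjusted p under 0.05 over all genes tested and a log2 fold change above 1 in size. CPM values used plain library totals. The biological coefficient of variation was 13.4%. No deposited columns of comparisons were used.

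Replicate numbers did not pair libraries: the correlation of deviations between same-numbered libraries ranged from -0.35 to 0.26 (median 0.01) over 105 pairs of Ex1 groups, and from -0.04 to 0.05 over 6 pairs in Ex2. Positions, KRAB matches and C2H2 patterns were taken from GENCODE release 44 by translating annotated transcripts, and promoters from RefSeq, where 175 of 200 members were matched. The genes named were the 10 highest members, the genes at the limit of the ranking, up to 5 called members each way per medium at day 8 (with libraries that did not overlap and a higher group of at least 10 CPM), up to 3 each way for XAV and FAX and between media, and the listed genes. Others were named after their values were seen where a run, a timing or a count of few genes called for it. Members and lists were chosen with earlier results of these data known. Scripts were tested on simulated data. Alternatives were RLE scaling, plain totals, 2 other filters, DESeq2 1.42.0, the compared libraries alone, a replicate block, other sets of naive libraries and leaving out each library. Comparing the naive libraries, and the N2B27 day 4 libraries, between experiments was added after seeing the data.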

Additional observations from a re-analysis of the deposited data

Results flagged for a closer look

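For 2 of the 88 groups of named genes checked, 1 library lay far from the others of its group, and for 13 of 400 over all members, where chance would give about 1 in 20. ZNF729 had 39.6 CPM in the first N2B27 day 4 library of Ex1 and 29.2 to 30.1 CPM in the other 3. ZNF44 had 28.3 CPM in the first naive library of Ex2 and 36.9 to 41.9 CPM in the other 5 naive libraries.

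The change from naive cells on Geltrex to N2B27 at day 4 differed between the experiments for 12 named members by an interaction test in edgeR (adjusted p under 0.05 over all genes tested), given as the log2 fold change in Ex1 minus that in Ex2. ZNF423 had the one positive difference, 1.24 (adjusted p = 0.011), and rose more in Ex1. The negative differences were -1.21 for ZNF711, -1.05 for ZNF200, -0.94 for ZNF432, -0.75 for ZNF207 and for ZNF664, -0.66 for ZNF257, -0.64 for ZNF398, -0.62 for ZNF638, -0.55 for ZNF326, -0.54 for ZNF770 and -0.48 for ZNF281. Between the Geltrex naive libraries of both experiments, ZNF423 was higher in Ex2 by a log2 fold change of 0.99 and the other 11 had values below 0, which were -0.97 for ZNF664, -0.90 for ZNF200, -0.87 for ZNF432, -0.85 for ZNF638, -0.68 for ZNF770, -0.65 for ZNF398, -0.62 for ZNF257, -0.59 for ZNF207, -0.49 for ZNF711, -0.46 for ZNF281 and -0.33 for ZNF326, all past the adjusted p except ZNF711 (adjusted p = 0.28, edgeR). Between the N2B27 day 4 libraries the values lay between -0.25 and 0.22 and did not pass, except for ZNF711, which was higher in Ex2 by 0.73 (adjusted p = 0.018, edgeR).

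For ZNF770 the difference between E8 and N2B27 was larger at day 8 than at day 4 by 0.61 on the log2 scale (adjusted p = 0.014, edgeR), where 2.27% of all genes tested passed.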

How the results depend on the processing

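The number of members called stayed within 1.5 times the main count in 214 of 219 alternatives without a left-out library and in 157 of 170 with one. The exceptions with plain totals were E8 at day 2 against naive (36 members), E8 against N2B27 at day 8 (0) and mTeSR against N2B27 at day 4 (1), and with the naive side limited to the same experiment XAV (21) and FAX (28) at day 4. Leaving out 1 library moved the counts between media to 0 to 1 for E8 and 0 to 1 for mTeSR against N2B27 at day 4, 1 to 4 for mTeSR against N2B27 at day 6, and at day 8 0 to 2 for E8 against N2B27 (0 without the first E8 library, 2 without either N2B27 or the second E8 library), 1 to 3 for mTeSR against N2B27 (3 without the second mTeSR library) and 1 to 4 for mTeSR against E8 (4 without the second E8 library).

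Signs turned for values that were near 0. ZNF207 in mTeSR at day 8 was 0.078 against naive libraries on Geltrex. ZNF638 against the naive libraries of Ex1 was -0.15 in N2B27, -0.19 in E8 and -0.021 in mTeSR, and with 1 library left out it ranged from -0.046 to 0.15 in N2B27 and from -0.079 to 0.12 in E8. ZNF395 in E8 was -0.016 against Ex1 and ranged from -0.016 to 0.11 with 1 library left out.

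Adding the replicate number as a replicate block left every count of members as it was, for example 22 in N2B27 and 30 in E8 at day 8, and changed no call of a named member. Ranking on the median in place of the mean CPM kept 197 of the 200 members. Depth limits the lowest members: 3 counts were worth 0.988 CPM in the smallest library, and with 2 libraries a group single values near a log2 fold change of 1 moved across the limit. The cause of these changes was not tested.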
